A study of Mus musculus with 6 samples.

Results

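The genes described here encode 9 self-antigens of diabetes and thyroid autoimmunity, and their accessibility was read in medullary thymic epithelial cells. They were taken by symbol from the table of gene windows, where each gene has 1 window around its start, and all 9 were found among 27095 windows. For type 1 diabetes they are Gad1 and Gad2 (glutamate decarboxylases, which make the transmitter GABA), Ptprn and Ptprn2 (phosphatase-like membrane proteins of dense-core secretory granules), Slc30a8 (the zinc transporter of beta-cell granules), Ica1 (a protein of secretory membrane traffic that islet antibodies recognise) and G6pc2 (the islet glucose-6-phosphatase subunit). For thyroid autoimmunity they are Tg (thyroglobulin, the precursor of thyroid hormone) and Tshr (the receptor for thyrotropin and the target of the antibodies of Graves disease). Insulin was left out of the set.

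In ATAC-seq the Tn5 transposase cuts accessible chromatin and adds sequencing adapters there, so that a window with more reads was more accessible. The study compared 3 wildtype libraries with 3 Kat7-knockout libraries, all on the C57BL/6 background and all from the MHCII-high fraction of these epithelial cells. KAT7, of the MYST family, acetylates lysines of histone tails. The sources used here do not give the driver of the Kat7 deletion, the deleted part of the gene, or the age of the mice.

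As background, medullary thymic epithelial cells express genes that are otherwise restricted to single tissues and show the products to developing T cells, so that T cells reactive to them are deleted or become regulatory. The nuclear factor AIRE drives many of these genes, and loss of thymic expression of a single self-antigen can be enough to break tolerance to the tissue that makes it. Islet cells and thyroid follicles are among the tissues attacked when this display fails. The counts below report accessibility around a gene start and not expression.

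Library totals lay between 15482439 and 19832326 counts. Levels are in CPM, counts scaled to the library's size, on which 3 counts (as many as a window with 0 may hide) were 0.151 to 0.194. The Kat7 window, which checks the labels, was counted 5672, 3729 and 4606 times in the wildtype and 208, 221 and 627 times in the knockout libraries. Its log2 fold change of -3.66 (edgeR adjusted p = 0.0143) did not pass without wildtype library 1 (adjusted p = 0.0643), without wildtype library 3 (0.0565) or with libraries 2 and 3 of each group alone (0.0658). All 15 medullary epithelial markers were tested; their summed level was 2204 to 2329 CPM in wildtype and 2225 to 2689 CPM in knockout libraries. Of them 2 were higher in the knockout, Foxn1 (92.9 and 299.6 CPM, log2 fold change 1.69, edgeR adjusted p = 4.98e-36) and Krt5 (0.61, adjusted p = 2.24e-06), and 0 lower. Summed thymocyte markers (11, of which 9 were tested) had 155.7 to 170.6 CPM in wildtype and 175.3 to 196.7 CPM in knockout libraries. Of the 9, 4 were higher in the knockout and 0 lower, among them Ptprc at 1.97 and 3.62 CPM. Summed B-cell markers (6 of 6 tested) had 65.0 to 66.8 CPM in wildtype and 41.4 to 43.7 CPM in knockout libraries, with 4 lower and 0 higher. Wildtype and knockout sums were 194.8 to 210.8 and 195.9 to 227.9 CPM for cortical epithelial, 288.7 to 300.7 and 280.8 to 339.0 CPM for myeloid, 118.5 to 126.1 and 106.9 to 108.4 CPM for mesenchymal, and 42.5 to 45.5 and 34.4 to 38.5 CPM for endothelial markers. These sums held calls in both directions: 1 lower and 2 higher of 6 cortical, 5 lower (among them Csf1r at -0.80 and Lyz2 at -0.79) and 1 higher of 10 myeloid (Zbtb46, 136.5 to 170.3 CPM), 2 lower (Pdgfrb at -1.17) and 2 higher (Dcn at 0.89) of 6 mesenchymal, and 2 lower (Kdr at -1.37) and 1 higher (Tek at 0.72) of 6 endothelial markers. No marker was at 0 in all libraries. The part of these markers in the results below was not tested. In bulk cells, fewer cells with an open window and less opening per cell cannot be told apart.

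Of 24817 windows tested with edgeR's quasi-likelihood test at a Benjamini-Hochberg adjusted p of 0.05, 5011 were lower in the knockout (20.2%) and 1578 higher (6.36%). All 9 members passed the filter on low counts. Of them 2 fell, Gad2 and Tshr, 1 rose, Gad1, and 6 did not pass. With so few members these counts are not a difference from the share over all windows. The groups of libraries did not overlap at 3 members, lower at Gad2 and Tshr, where 24.6% of all windows were lower in this way, and higher at Gad1, where 13.5% were higher. The median log2 fold change of the members was -0.23, and that of all tested windows was 0.04. It varied with the level of the windows, in quartiles of mean log2 CPM. It was -0.27 in quartile 2, with 3 members, -0.19 in quartile 3, with 5, and 0.37 in quartile 1, with 1. The members' median thus lay between those of quartiles 2 and 3 and does not show a fall beyond windows of like level.

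The upstream sequences of both pairs of relatives among the members, the decarboxylase genes and the granule phosphatase genes, are shown because the members of the first pair were called in opposite directions while neither of the second was called. They are the 250 bases before a RefSeq gene start (build GRCm38.p6, the assembly that mm10 names), 5′ to 3′ on the strand of the gene, and capitals mark CpG, the dinucleotide that is frequent in CpG islands. RefSeq promoters were found for 6 of the 9 members. RefSeq's gene table begins each of these genes further upstream, inside its window. Gad1 and Gad2 begin there at bases 70561303 and 22621015 of chromosome 2, Ptprn at 75264497 of chromosome 1 and Ptprn2 at 116485695 of chromosome 12. By that table the stretches shown for Gad1, Gad2 and Ptprn lie inside the gene, and that of Ptprn2 runs past its first base. RefSeq also lists a Ptprn start 437 bases downstream of the one used, inside the window.
Gad2, chr2:22622077-22622326, plus strand: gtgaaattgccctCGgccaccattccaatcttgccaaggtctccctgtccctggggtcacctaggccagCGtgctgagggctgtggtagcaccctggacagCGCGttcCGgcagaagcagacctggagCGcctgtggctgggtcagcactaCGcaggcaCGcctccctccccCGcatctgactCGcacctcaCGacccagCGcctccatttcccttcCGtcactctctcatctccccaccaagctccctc
Gad1, chr2:70561879-70562128, plus strand: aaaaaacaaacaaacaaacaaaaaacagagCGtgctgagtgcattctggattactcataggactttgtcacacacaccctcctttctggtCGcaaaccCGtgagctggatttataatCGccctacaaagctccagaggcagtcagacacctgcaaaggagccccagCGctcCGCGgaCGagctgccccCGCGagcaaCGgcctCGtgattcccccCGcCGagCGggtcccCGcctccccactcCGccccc
Ptprn2, chr12:116485470-116485719, plus strand: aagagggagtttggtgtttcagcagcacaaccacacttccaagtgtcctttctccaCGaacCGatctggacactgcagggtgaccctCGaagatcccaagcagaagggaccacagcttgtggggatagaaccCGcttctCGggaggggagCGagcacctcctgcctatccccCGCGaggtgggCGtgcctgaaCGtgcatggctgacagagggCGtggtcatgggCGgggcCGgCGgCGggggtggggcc
Ptprn, chr1:75264209-75264458, minus strand: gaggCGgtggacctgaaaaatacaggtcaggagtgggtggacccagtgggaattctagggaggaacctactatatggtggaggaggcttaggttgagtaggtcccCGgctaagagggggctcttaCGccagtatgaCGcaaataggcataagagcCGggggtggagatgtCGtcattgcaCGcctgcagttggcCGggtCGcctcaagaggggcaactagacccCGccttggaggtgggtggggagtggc

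These 4 stretches held 13 (Gad2), 17 (Gad1), 15 (Ptprn2) and 10 (Ptprn) CpG, where the median over 18005 promoters was 10. The upstream sequences of Ica1 and G6pc2 held 9 and 5. Over all windows tested that had a promoter, 18.2% of those with 10 or more CpG were lower in the knockout, 29.7% of those with 4 to 9 and 16.5% of those with 0 to 3. On either strand, the GC box GGGCGG was present upstream of Gad1, Ica1 and Ptprn2 and in 43.1% of all promoters. The sequence TATAAA was present upstream of Gad1 and Ica1 and in 12.2% of all promoters, and CCAAT upstream of Gad2 alone among the members and in 36.2%. In Ica1 TATAAA was on the strand of the gene and began 142 bases before the gene start. In Gad1 it was on the opposite strand, read on the strand of the gene as TTTATA from 141 bases before the gene start. No member held the AP-1 sequence TGACTCA (4.1% of all promoters), the CRE sequence TGACGTCA (2%) or the ETS sequence CCGGAAGT (3.9%) in these bases. These are matches of letters and not binding sites. Those of Gad1 lie in the part of its window shared with that of the antisense gene Gad1os, where reads seem not to have been counted (below).

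In wildtype cells the members spanned a wide range of accessibility. Every member window is 5001 bases long, so that CPM per kilobase of window ranks them as CPM does. The highest level was 10.5 ± 0.866 CPM per kilobase at Ica1 (SD, n = 3), followed by Gad1 at 8.52, Ptprn2 at 5.28, Tshr at 4.98, Ptprn at 2.36, Gad2 at 1.24, Tg at 0.608, G6pc2 at 0.457 and Slc30a8 at 0.240. Neighbours in this order were separated in the wildtype libraries except for Ptprn2 and Tshr and for Tg and G6pc2, whose ranges overlapped. The order understates Gad1, because 2808 bases of its window are shared with that of the antisense gene Gad1os and reads in shared stretches seem not to have been counted: 476 windows that others cover in full had a median count of 0, and the 20852 sharing no base one of 224.3. Per kilobase of its unshared 2193 bases, Gad1 had 19.4 CPM. Ranked among all tested windows by mean log2 CPM, Ica1 stood at percentile 72.5 and Slc30a8 at percentile 15.3, and no member lay in the top quartile.

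**Figure D1:**
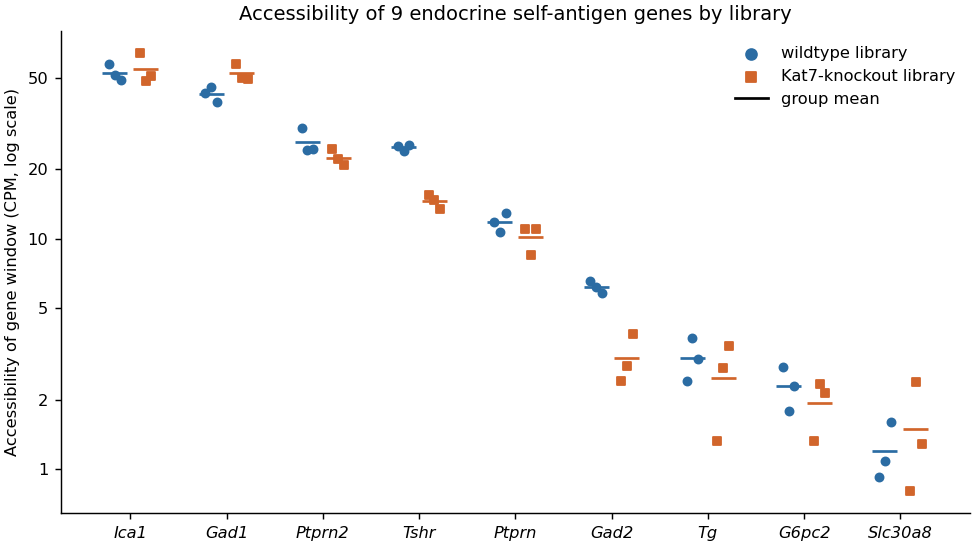
Accessibility of the 9 members in each library, in CPM on a log axis, for 3 wildtype (circles) and 3 Kat7-knockout (squares) libraries, with horizontal lines at the group means. The groups are apart at Gad2, Tshr and Gad1 and overlap at the other 6.

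Gad2 had the largest fall of the members. It encodes the smaller glutamate decarboxylase, GAD65, which anchors to synaptic-like vesicles and is the decarboxylase that most diabetes antibodies bind. Its window (gene identifier 14417, chromosome 2, 22619327 to 22624327, mm10) reaches from 3000 bases before to 2000 bases after the start used for its printed sequence and shares no base with another. It held 6.56, 6.20 and 5.79 CPM in wildtype libraries 1 to 3 and 2.41, 2.81 and 3.85 CPM in knockout libraries 1 to 3. The highest knockout value, in library 3, was still below the lowest wildtype value. The knockout mean was 48.9% of the wildtype mean, with a log2 fold change of -1.04 (SE 0.222, 95% interval -1.47 to -0.60, edgeR adjusted p = 2.54e-05). These levels rest on 128, 97 and 98 wildtype counts and on 42, 47 and 63 knockout counts. It passed in all 13 alternative settings, with log2 fold changes from -1.25 to -0.72 and adjusted p from 5.7e-06 to 0.00408.

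Gad1 was higher in the knockout, but by less. It encodes GAD67, the decarboxylase that supplies most of the GABA of neurons. Its window (gene identifier 14415, chromosome 2, 70559164 to 70564164) held 42.8, 45.6 and 39.4 CPM in wildtype libraries 1 to 3 and 57.4, 49.7 and 49.5 CPM in knockout libraries 1 to 3. Every knockout library lay above every wildtype library, with knockout library 1 well above the others. The log2 fold change was 0.29 (SE 0.112, 95% interval 0.07 to 0.51, edgeR adjusted p = 0.0357). The call was lost without wildtype library 1 (0.29, adjusted p = 0.111), wildtype library 3 (0.21, adjusted p = 0.148), knockout library 1 (0.22, adjusted p = 0.0582) or knockout library 2 (0.33, adjusted p = 0.0587), and it passed in the other 9 of 13 alternatives, the lowest adjusted p being 0.000367 after loess normalisation.

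If shared stretches were left out, the Gad1 counts come from bases 70559164 to 70561356. These lie 773 to 2965 bases before the start used for the printed sequence. That start and the whole printed sequence are then outside the counted bases. The counted bases hold the first base of the gene in RefSeq's gene table, 70561303. The unshared part of the Gad1os window lies 2036 to 4228 bases after the start used for the printed sequence, on chromosome 2 from 70564165 to 70566357. Gad1os held 24.4, 24.1 and 22.7 CPM in wildtype libraries 1 to 3 and 20.3, 21.1 and 16.9 CPM in knockout libraries 1 to 3, each knockout library below each wildtype library, and did not pass (log2 fold change -0.29, edgeR adjusted p = 0.06). The log2 ratio of Gad1 to Gad1os was 0.83 ± 0.07 in wildtype and 1.40 ± 0.17 in knockout libraries (SD, n = 3 each), a difference of 0.57 with no overlap between the groups (exact two-sided permutation p = 0.1, the smallest that 3 against 3 allows; chosen after the values were seen). As every knockout library was higher at Gad1 and lower at Gad1os, the groups had to separate in this ratio and its p was fixed. Reads in these windows mark accessible DNA and not transcripts, so that they cannot be assigned to the gene or to its antisense partner.

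The ratio of the decarboxylase genes separated the groups. It had to, because every knockout library was lower at Gad2 and higher at Gad1 than every wildtype library. The separation and its permutation p were thus fixed and add nothing to the changes of these genes. If shared stretches were left out, this ratio sets unlike stretches side by side. Gad1 was then counted 773 to 2965 bases before the start used for its printed sequence, and Gad2 on both sides of its own. The log2 ratio of Gad2 to Gad1 was -2.62, -2.78 and -2.67 in wildtype libraries 1 to 3 and -4.32, -3.93 and -3.52 in the knockout libraries. The knockout mean lay 1.23 below the wildtype mean with the groups apart (difference -1.23, exact two-sided permutation p = 0.1, the smallest possible, and 0.2 adjusted over 2 pairs, n = 3 each). For the other pair, Ptprn2 to Ptprn, the ratio was 1.12 ± 0.21 in wildtype and 1.11 ± 0.22 in knockout (SD, n = 3 each), a difference of -0.013 (exact permutation p = 0.8, also after adjustment). That p does not show that the pair changed alike.

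Tshr was lower in every knockout library than in any wildtype library. Thyrotropin acts through this G protein-coupled receptor to start hormone synthesis and thyroid growth. Its window (gene identifier 22095, chromosome 12, 91397993 to 91402993), which shares no base with another, held 25.2, 24.0 and 25.5 CPM in wildtype libraries 1 to 3 and 15.4, 14.7 and 13.5 CPM in knockout libraries 1 to 3. The groups were far apart and each was tight, with SDs of 0.777 CPM in wildtype and 0.993 CPM in knockout. The knockout mean was 58.3% of the wildtype mean, with a log2 fold change of -0.78 (SE 0.123, 95% interval -1.02 to -0.54, edgeR adjusted p = 2.96e-09). It passed in all 13 alternatives, with adjusted p from 1.56e-11 to 0.0032, and its log2 fold change was -0.40 after loess normalisation and between -0.84 and -0.73 in the others.

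Tg, the most abundant protein of the thyroid follicle, had few counts. Its window (gene identifier 21819, chromosome 15, 66667770 to 66672770) held 2.41, 3.71 and 3.01 CPM in wildtype libraries 1 to 3 and 1.32, 2.75 and 3.42 CPM in knockout libraries 1 to 3. The groups overlapped, and only knockout library 1 lay below all wildtype libraries. The log2 fold change of -0.28 (95% interval -0.87 to 0.31, edgeR adjusted p = 0.532) was 0.03 without knockout library 1. The counts, 23 to 58 per library, left a change as large as that of Tshr inside the interval.

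**Figure D2:**
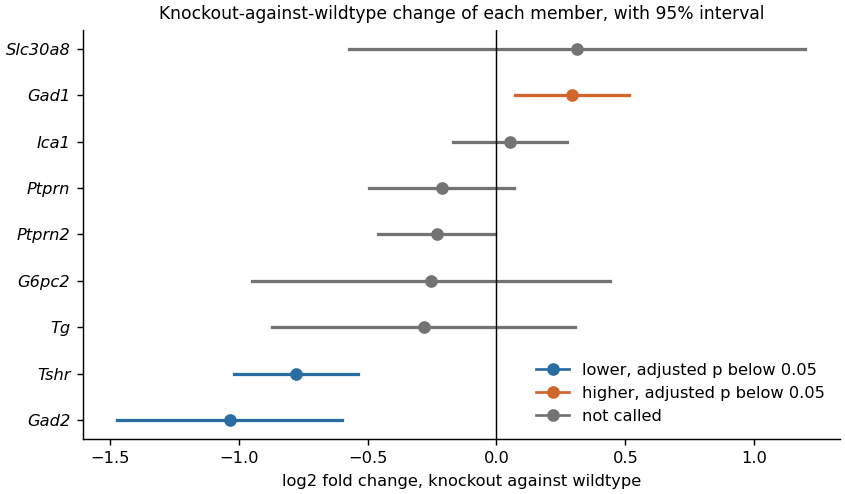
Log2 fold change of each member, knockout against wildtype, with its 95% interval from edgeR. Gad2 (-1.04) and Tshr (-0.78) lie below 0 and were called, Gad1 (0.29) lies above 0 and was called, and the interval of Slc30a8 is the widest, from -0.57 to 1.20.

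The granule phosphatase genes did not pass. Ptprn encodes IA-2, whose cytoplasmic part is a main target of diabetes antibodies, and Ptprn2 encodes its relative phogrin. Ptprn (gene identifier 19275, chromosome 1, 75262208 to 75267208) held 11.8, 10.7 and 12.9 CPM in wildtype libraries 1 to 3 and 11.1, 8.48 and 11.0 CPM in knockout libraries 1 to 3. The groups overlapped, with only knockout library 2 below all wildtype libraries (log2 fold change -0.21, 95% interval -0.49 to 0.07, edgeR adjusted p = 0.292). Ptprn2 (gene identifier 19276, chromosome 12, 116482720 to 116487720) held 30.3, 24.3 and 24.5 CPM in wildtype libraries 1 to 3 and 24.6, 22.1 and 20.8 CPM in knockout libraries 1 to 3. Wildtype library 1 stood above the rest, and knockout library 1 lay just above the other wildtype libraries. Its log2 fold change of -0.23 (95% interval -0.46 to -0.0039) had an unadjusted p of 0.0462 and an edgeR adjusted p of 0.134; the adjusted p was 0.00846 without wildtype library 2 and 0.0404 with no filter on low counts. After loess normalisation the values turned to 0.25 for Ptprn and 0.07 for Ptprn2, neither of which passed.

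Ica1 differed little between the groups. Its window (gene identifier 15893, chromosome 6, 8776484 to 8781484) held 57.3, 51.2 and 48.9 CPM in wildtype libraries 1 to 3 and 63.9, 48.6 and 50.8 CPM in knockout libraries 1 to 3. Library 1 was the highest of each group and the ranges overlapped. The log2 fold change was 0.05 (95% interval -0.17 to 0.27, edgeR adjusted p = 0.776). RefSeq lists a further Ica1 start 20026 bases downstream, outside the window and not counted here.

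Slc30a8 and G6pc2, both close to beta-cell-specific in the body, had the least accessible windows. Slc30a8 (gene identifier 239436, chromosome 15, 52292553 to 52297553) held 0.922, 1.09 and 1.60 CPM in wildtype libraries 1 to 3 and 0.802, 2.39 and 1.28 CPM in knockout libraries 1 to 3, from 14 to 40 counts. Its knockout libraries held both the lowest and the highest value of the 6 (log2 fold change 0.31, 95% interval -0.57 to 1.20, edgeR adjusted p = 0.66; -0.20 without knockout library 2). G6pc2 (gene identifier 14378, chromosome 2, 69216998 to 69221998) held 2.77, 1.79 and 2.30 CPM in wildtype libraries 1 to 3 and 1.32, 2.33 and 2.14 CPM in knockout libraries 1 to 3, from 23 to 54 counts. Only knockout library 1 lay below all wildtype libraries (log2 fold change -0.25, 95% interval -0.95 to 0.44, edgeR adjusted p = 0.647). These counts left wide intervals: that of G6pc2 holds a fall as large as at Tshr, and that of Slc30a8 reaches a rise of 1.20 on the log2 scale. RefSeq lists a further G6pc2 start 8925 bases upstream, outside the window.

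The rank of knockout library 1 among the knockout libraries went with the level of the window, though not always by much: at Ptprn it held 11.06 CPM against 11.01 CPM in library 3. It was the highest of the 3 at the 5 members with the most accessible windows (Ica1, Gad1, Ptprn2, Tshr and Ptprn) and the lowest at the 4 with the least accessible (Gad2, Tg, G6pc2 and Slc30a8). Its TMM factor was 0.884, against 0.984 to 1.057 in the other libraries. Without it Gad2 had a log2 fold change of -0.90 (edgeR adjusted p = 0.000922) and Tshr of -0.83 (edgeR adjusted p = 4.07e-06), so both calls held.

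The level of a window also went with the calls over the whole table. Windows were split into quartiles by mean log2 CPM. Gad2, Tg and G6pc2 lay in the second quartile, where 32.5% of windows were lower in the knockout and 4.58% higher. Tshr, Gad1, Ptprn, Ptprn2 and Ica1 lay in the third, where 43.2% were lower and 9.28% higher. The falls at Gad2 and Tshr were thus of a kind that was frequent at like levels. The median log2 fold change of all windows was -0.27 in quartile 2 and -0.19 in quartile 3, on both sides of the members' -0.23. Slc30a8 lay in the first quartile, where 1.35% were lower and 2.26% higher and the median log2 fold change was 0.37, close to its own 0.31.

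**Figure D3:**
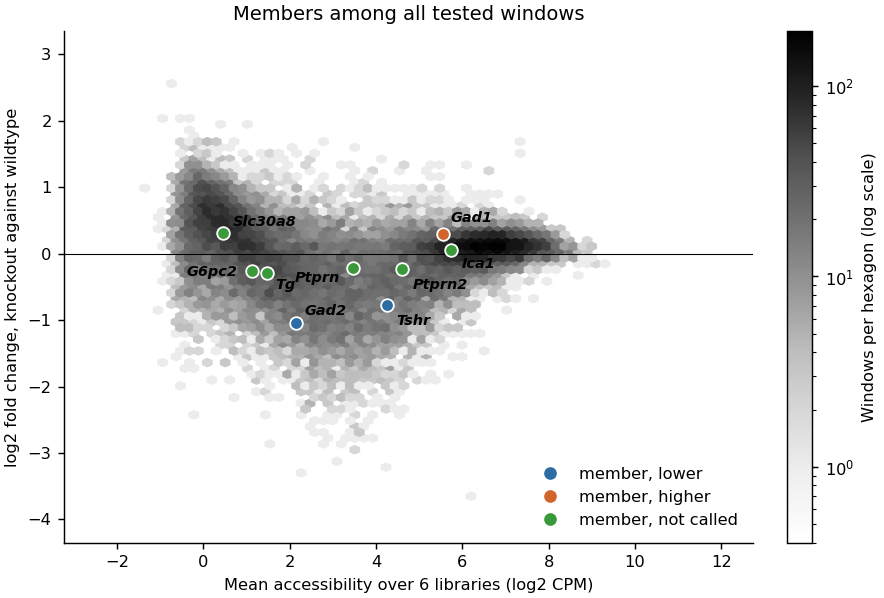
Log2 fold change, knockout against wildtype, against mean accessibility over the 6 libraries (log2 CPM) for all tested windows (grey hexagons, darker for more windows) with the 9 members marked. Gad2 and Tshr lie in the band of middle levels where many windows are below 0, and Slc30a8 lies at the left, where most windows are above 0.

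Of 18 neighbours, the nearest window on each side of each member, 3 were lower, 0 higher and 15 did not pass, where 20.2% of all windows were lower and 6.36% higher. Tshr lies between Cep128, a centrosome gene 10.6 kb away (log2 fold change 0.15, edgeR adjusted p = 0.386), and Gtf2a1, a general transcription factor gene 185.5 kb away (0.14, adjusted p = 0.46), so its fall was not seen at the adjoining windows. Those of Gad2 had about 1 CPM or less in wildtype, and the nearer, Mir3967 at 27.0 kb, held 0.513 CPM in wildtype cells and 1.25 CPM without Kat7, a log2 fold change of 1.29 that did not pass (adjusted p = 0.0547). The 3 that fell were Erich2 beside Gad1 (-0.36, adjusted p = 0.00787), A430035B10Rik beside Ica1 (-0.85, adjusted p = 0.0357) and Resp18, an endocrine secretory-pathway gene 9.2 kb from Ptprn (-0.30, adjusted p = 0.0326).

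Windows whose log2 CPM followed a member most closely over the 6 libraries were looked up as a description. For Tshr they were Slc6a7 (Pearson's r = 0.9997) and 1700028D13Rik (r = 0.9991), and for Gad2 Gm10710 (r = 0.9984) and Ifitm5 (r = 0.9981). With 6 libraries such values are common, and 1877 windows had r above 0.95 with Tshr and 1438 with Gad2. For Gad1 it was 845, and for the 6 members whose groups overlapped it was 16 (Ptprn) to 428 (Ica1).

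Genes of the tissues that make these antigens were read from lists, whose shares stand beside the 20.2% of all windows that were lower, 32.5% in the second level quartile and 43.2% in the third. Of 24 genes of islet identity, glucose sensing and granules, 9 fell (37.5%), 2 rose and 13 did not pass, with a median log2 fold change of -0.35. After loess normalisation 8 fell, 4 rose and the median was -0.11. Those with the largest changes were Sytl4 (-1.53), which encodes the granule docking protein granuphilin, Rfx6 (-1.43), a transcription factor of islet development, Glp1r (-1.15), the incretin receptor, and Slc2a2 (-1.09), the glucose transporter of beta cells. Among those that rose was the granin Chgb (0.40), named after its value was seen. Pdx1 (-0.07, edgeR adjusted p = 0.927), Nkx2-2 (-0.58, adjusted p = 0.11) and Mafa (0.11, adjusted p = 0.533) did not pass. Windows of Pdx1, Nkx2-2 and 2 more of the list share bases with others.

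Of 16 tested genes of thyroid hormone synthesis, deiodination and thyroid transcription factors, 7 fell (43.8%), 0 rose and 9 did not pass, with a median of -0.61. The list also counts the thyrotropin subunit genes Tshb and Cga, which are not thyroid genes and are named outside the rule for named genes. Of these Tshb fell (-0.75, edgeR adjusted p = 0.0479) and Cga did not pass (-0.69, adjusted p = 0.0503). The number that fell was 11 after loess normalisation, where 1 rose, 4 with DESeq2 and 4 without knockout library 2. Nkx2-1, the transcription factor that specifies thyroid and lung, fell from 15.6 ± 1.04 to 6.06 ± 1.27 CPM (SD, n = 3 each; log2 fold change -1.37, edgeR adjusted p = 1.64e-18), and Dio2, a deiodinase that activates thyroid hormone, from 18.0 ± 0.838 to 7.01 ± 0.768 CPM (-1.36, edgeR adjusted p = 4.37e-20). Duoxa1 (-0.996), in a window mostly shared with others, and Iyd (-0.90), the iodotyrosine deiodinase, fell too. Duox2 (-1.06, adjusted p = 0.052, mostly shared) and Dio1 (-0.14, adjusted p = 0.455) did not pass.

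Of 12 antigens of other endocrine and polyendocrine autoimmunity, 8 fell (66.7%), 0 rose and 4 did not pass, with a median of -0.99. By level, 1 lay in the first quartile of windows, 5 in the second and 6 in the third. Between 7 and 8 fell in the 13 alternatives, 1 rose without knockout library 1, and the median was -0.65 after loess normalisation. Tph1, the peripheral enzyme of serotonin synthesis, fell from 28.6 ± 2.56 to 9.86 ± 1.07 CPM (SD, n = 3 each; log2 fold change -1.54, edgeR adjusted p = 8.57e-32). Ddc, the aromatic amino acid decarboxylase (-1.34), Bpifb1, an airway secretory protein (-1.28), and Tgm4, the prostate transglutaminase (-1.21), fell as well. Cyp21a1, the adrenal steroid hydroxylase (0.05, adjusted p = 0.905), Cyp11a1, which starts steroid synthesis (-0.05, adjusted p = 0.92), and Nlrp5, an oocyte and parathyroid antigen (0.78, adjusted p = 0.17), did not pass.

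Sequence relatives of the members and genes of GABA handling were mixed. Of 33 relatives 6 fell (18.2%), 4 rose and 23 did not pass, with a median of -0.13. The number that fell was 10 without knockout library 1 and with the replicate number as a block. The number that rose was from 2 (without wildtype library 1) to 6 (mean count of at least 50) in the 13 alternatives. The receptor phosphatase genes Ptprm (-1.99), Ptprb (-1.71) and Ptprr (-1.36) and Csad (-1.004), which encodes the taurine-forming relative of the glutamate decarboxylases, fell. Those that rose, named after their values were seen, were Ptprg (0.51), Ptprk (0.47), Ptprz1 (0.38) and Ptprq (0.35). Gadl1 (-0.13), Ica1l (-0.20) and G6pc (-0.62, adjusted p = 0.0696) did not pass. Of 6 tested genes that break down or carry GABA, 3 fell and 0 rose (1 in 6 of 13 alternatives), among them Abat, the GABA transaminase (44.0 to 15.2 CPM, log2 fold change -1.54, edgeR adjusted p = 5.59e-37), and the transporter Slc6a13 (-1.35). Aldh5a1 (0.26), Slc6a11 (0.11) and Slc6a12 (-0.53) did not pass.

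**Figure D4:**
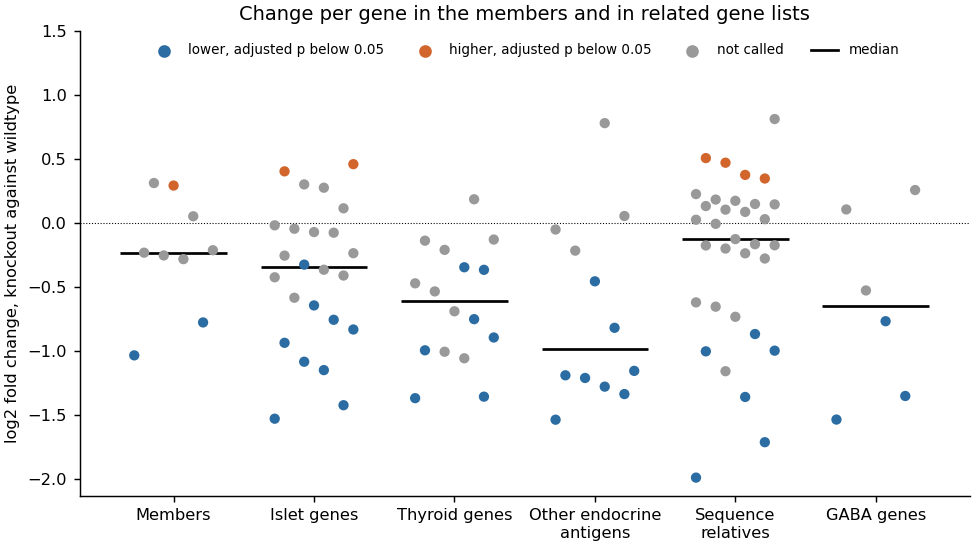
Log2 fold change, knockout against wildtype, of each tested gene in the members and in 5 related lists, with black lines at the medians. The medians run from -0.13 (sequence relatives) to -0.99 (other endocrine antigens), and that of the members is -0.23.

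**Figure D5:**
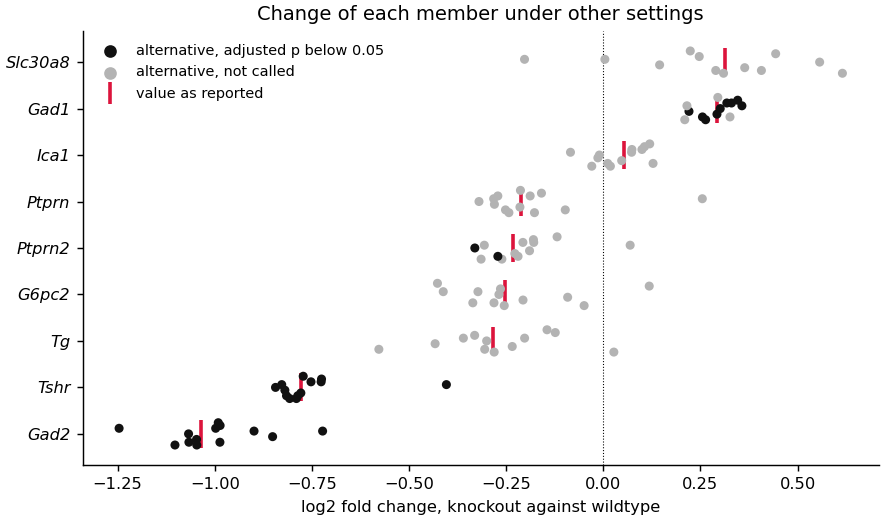
Log2 fold change of each member as reported (red bars) and under each alternative setting (dots, black where the adjusted p was below 0.05). Gad2 and Tshr stay below 0 and called throughout, Gad1 stays above 0 but is not called in 4 of 13, and no dot of Ica1, Ptprn, G6pc2, Tg or Slc30a8 is black.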

How the data were processed

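Per the labels, 6 ATAC-seq libraries were made from medullary thymic epithelial cells, 3 wildtype and 3 Kat7-knockout. The deposited values are whole-number counts per gene window, which the authors made with featureCounts for mm10 according to the submitters' processing notes. The sources used here name no aligner, duplicate handling or transposase offset. Of 18005 windows holding a RefSeq gene start, 13840 had it exactly 3000 bases in. Symbols came from the libraries' own tables, whose counts equalled the series table in all 6. Windows were filtered with filterByExpr, scaled by TMM, and tested in R 4.3.3 with edgeR 4.0.16 (robust quasi-likelihood, Benjamini-Hochberg adjustment over 24817 windows). The steps were tested on simulated data. Alternatives used DESeq2 1.42.0, limma 3.58.1 loess offsets (span 0.3) and other filters and libraries. Ratios used 0.5 CPM as pseudocount and exact permutation in scipy 1.17.1. P-values measure the spread between these libraries, which are biological replicates per the design text. Intervals on log2 fold changes come from the same edgeR fit, so that they cover this spread as well as counting error. Members and lists were chosen with earlier results of these data known. The rule for named genes took all members, the nearest window on each side, the 2 windows most alike, and from each list up to 4 called genes by size and 3 not called; a few of these are not reported here. Promoter sequences are from RefSeq, GRCm38.p6.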

Additional observations from a re-analysis of the deposited data

How the results depend on the processing

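Gad2 and Tshr kept their direction and their call in all 13 alternatives. The number of members lower was 2 or 3 in every alternative, and the number higher was 0 to 1 when single libraries were left out. The number of windows higher over the whole table, 1578 as reported, was 2937 with library totals only, 4324 after loess normalisation, 3937 with a mean count of at least 50, 2824 with the replicate number as a block, 2664 with libraries 2 and 3 of each group only, and 689 (without wildtype library 1) to 3177 (without knockout library 1) with single libraries left out. The members' median was 0.0041 after loess normalisation, which turned Ptprn to 0.25 and Ptprn2 to 0.069. With libraries 2 and 3 only, Ica1 had -0.014, G6pc2 0.12 and the Ptprn2 to Ptprn difference 0.083. Leaving out single libraries gave -0.58 to 0.027 for Tg, -0.20 to 0.62 for Slc30a8, -0.084 to 0.13 for Ica1 and -0.12 to 0.10 for the Ptprn2 to Ptprn difference. None of the members' sign changes passed the test, and the cause was not tested. Whether the replicate numbers pair the libraries was not settled. Deviations from the group means correlated at 0.374, 0.028 and 0.389 for like numbers 1 to 3. For unlike numbers they correlated at -0.445 (wildtype 3 with knockout 1) to 0.308 (wildtype 3 with knockout 2). With the replicate number as a block 2 members were lower and 1 higher. The Gad2 to Gad1 difference within numbers, -1.23, equals that of the group means by arithmetic. Only its p could change (exact two-sided permutation within numbers p = 0.25). Slc30a8, Tg and G6pc2 could not be tested at a mean count of at least 50, which removed them. Depth limits these 3 most, at 14 to 58 counts per library.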
